A study of Homo sapiens with 6 samples.

Results

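The interferon-stimulated genes are genes that type I interferon switches on, and 39 of them, listed by symbol, were followed among the 28278 gene symbols of this RNA-seq series. All 39 symbols were in the count table. The rule that picks them is induction by type I interferon and uses no value measured here, although the list was drawn up with earlier results of these data known. The cells were HCT116, a widely used human cell line that grew out of a colon carcinoma, and carried either an shRNA against TRIM21 (shTRIM21, genotype labelled as TRIM21 knockdown, 3 libraries) or a scrambled shRNA (shControl, genotype labelled WT, 3 libraries). Both groups had received a lentivirus and had been put on puromycin at 5 µg/ml from 36 h later, for 2 to 3 weeks, and all libraries are labelled day 21. The labels name no interferon treatment and no virus other than that lentivirus. The labels name 1 kind of TRIM21 shRNA without its sequence. Replicates are labelled as biological, with no word on whether cultures or infections were separate, so p-values reflect the variation among these 6 samples alone, and part of it may be technical.

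Type I interferon binds its receptor, the kinases JAK1 and TYK2 then activate STAT proteins, and the transcription factor ISGF3, which contains STAT2 and IRF9, binds the interferon-stimulated response element in the promoters of its target genes. The proteins made from those genes bind foreign RNA, cut or trap virus, attach the ubiquitin-like protein ISG15 to other proteins, or raise the cell's readiness to answer interferon again. TRIM21 attaches ubiquitin to other proteins and recognises antibody-coated virus in the cytosol, is itself induced by interferon, and is known to modify interferon regulatory factors.

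The response element sits in the promoters of most of these genes, and the copies shown here belong to members that the results turn on, to the most abundant members and to 2 members (IFI44 and EPSTI1) that were nearly or wholly uncounted. RefSeq promoter windows on GRCh38.p14, covering 250 bases before to 50 bases after each annotated start, were found for 32 of the 39 members, and there were none here for IFIT2, IRF7, MX2, OAS2, OASL, TRIM22 and USP18. The element was searched as GAAANNGAAA on both strands, N being any base, and is printed 5′ to 3′ in the direction in which it reads this way, with its letters in capitals and 10 bases on each side.
DTX3L and PARP9, shared, chr3:122564322-122564351, plus strand: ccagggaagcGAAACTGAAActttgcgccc
ISG20, chr15:88638937-88638966, plus strand: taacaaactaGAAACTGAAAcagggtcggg
ISG15, chr1:1013380-1013409, plus strand: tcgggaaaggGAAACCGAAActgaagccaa
MX1, chr21:41420559-41420588, plus strand: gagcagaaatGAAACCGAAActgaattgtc
BST2, chr19:17405741-17405770, minus strand: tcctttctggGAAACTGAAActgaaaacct
IFIT5, chr10:89414554-89414583, minus strand: cgagcgctcaGAAACTGAAActtaagaaat
PARP14, chr3:122680800-122680829, plus strand: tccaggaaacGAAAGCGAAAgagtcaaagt
SAMD9, chr7:93118096-93118125, minus strand: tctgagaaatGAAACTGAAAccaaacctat
OAS3, chr12:112938452-112938481, plus strand: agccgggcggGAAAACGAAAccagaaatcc
IFI44, chr1:78649761-78649790, minus strand: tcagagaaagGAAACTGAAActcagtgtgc
EPSTI1, chr13:42992272-42992301, minus strand: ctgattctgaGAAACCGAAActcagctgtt

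The element was present in 23 of the 32 members with a window, or 71.9%, against 429 of 10513 tested genes with a window (4.08%) and 1195 of all 27305 genes with one (4.38%). With a C required after the second repeat (GAAANNGAAAC) it was present in 20 members (62.5%) and in 1.08% of tested genes. The 23 members held 43 elements between them, counting the copy that DTX3L and PARP9 share once for each gene. Of these, 24 read in the gene's own direction and 19 against it, and 42 began before the annotated start. The exception was the MX1 copy printed above, which began after it. A single element was found in 9 members and 2 or more in 14, and 4 neighbouring pairs overlapped each other, as in BST2 and ISG15. The palindrome TTCNNNGAA, a core of STAT binding sites, was present in 11 of the 32 members (34.4%) and in 8.60% of tested genes. It overlapped a response element in 5 members, namely IFITM1, IFI27, EPSTI1, BST2 and MX1. CMPK2, HERC6, IFI35, IRF9, OAS1, SAMD9L, STAT2, UBE2L6 and XAF1 had a window without GAAANNGAAA. A match describes these letters in these windows and does not show that a factor binds there.

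**Figure D1:**
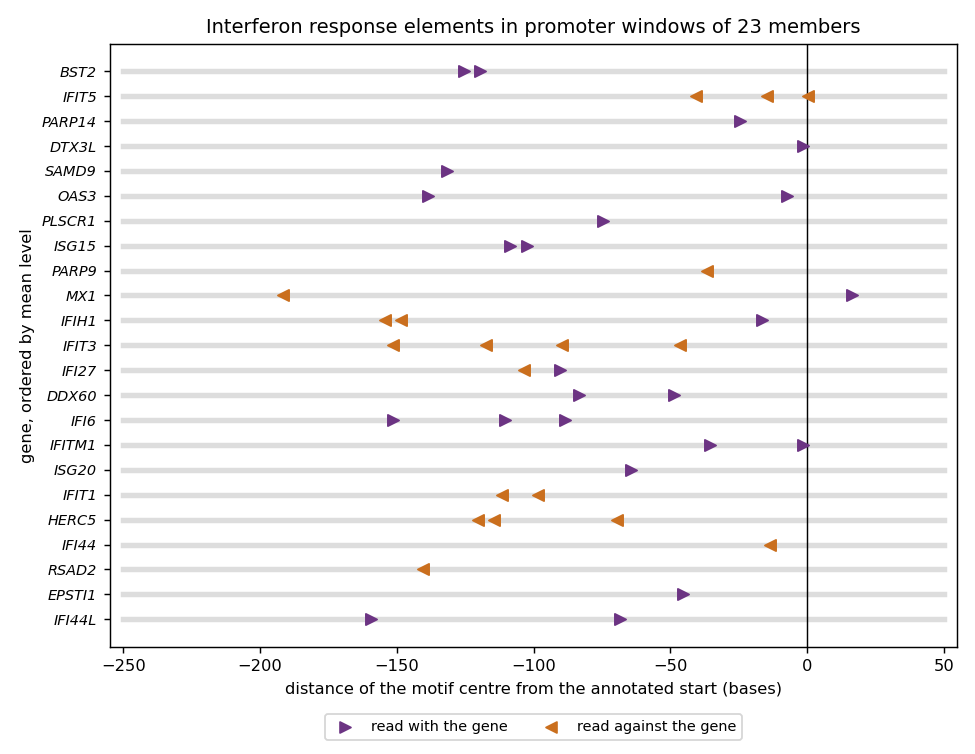
Positions of GAAANNGAAA matches in the promoter windows of the 23 members that held one, with members down the page by mean level and the distance of the motif's centre from the annotated start, in bases, on the x axis (grey bars, 250 bases before to 50 after the start). Purple right-pointing triangles read with the gene (24) and orange left-pointing triangles against it (19), and for genes with several annotated starts each match is placed relative to the start of its own window.

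The 6 libraries held 25842818, 22656160 and 25220745 counts in shTRIM21 and 25078521, 24646400 and 27123657 in shControl, and replicate 3 of each group stood apart on the second principal component (23.4% of the variance), with shControl replicate 3 farthest out. Counts of ribosomal RNA genes took 9.55% to 15.2% of shTRIM21 and 6.69% to 14.7% of shControl libraries, lowest in replicate 3 of each. TRIM21 itself had 225, 182 and 173 counts in shTRIM21, against 288, 286 and 443 in shControl, a log2 fold change of -0.73 (SE 0.17) by edgeR's quasi-likelihood test (Benjamini-Hochberg adjusted p = 0.0124). That call was lost without shTRIM21 replicate 3 (-0.62, adjusted p = 0.0734), as it was when replicate 3 was left out of both groups (-0.45, 0.114). Summed levels of 10 colon epithelium markers were 172 to 174 CPM (counts scaled to a common library size) in shTRIM21 and 185 to 198 CPM in shControl. Of the 8 tested, 0 passed and 5 were lower without overlap (62.5%, against 13.9% of all genes tested), while CDX1 was at 0 and KRT19, CDH17 and KRT20 stayed below 1.5 CPM throughout. Leukocyte, fibroblast and endothelial marker lists summed to at most 0.531 CPM in any library, and 3 of 10, 4 of 7 and 1 of 5 of their genes were at 0 in every library. The part that the lower epithelial markers play in the results below was not tested.

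HCT116 cells held very unequal amounts of these transcripts. Of the 39 members, 13 averaged at least 10 CPM over the 6 libraries, 17 averaged less but reached 1 CPM in some library, 5 were below 1 CPM in every library and 4 were listed at 0 throughout. Genes were compared in CPM per kb of exon, where the length is the union of all annotated exons of a gene. That length was 7363 bases for ISG20 and 1119 for BST2, so order and shares depend partly on the annotation. On this scale BST2, IFIT5 and PARP14 together made up 58.7% of the summed level of all members, and the 8 most abundant made up 81.5%. The well counted members thus spanned most roles, from a virion tether to an RNA-binding protein, ADP-ribosyltransferases, ISG15 enzymes and STAT2.

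BST2, or tetherin, which ties budding virions to the cell surface, was the most abundant member, at 107 ± 7.04 CPM per kb in shTRIM21 and 98.3 ± 3.40 in shControl (SD, n = 3 each). IFIT5, which binds RNA with a 5′ triphosphate, followed at 14.6 ± 0.996 CPM per kb in shTRIM21 and 15.7 ± 2.28 in shControl. UBE2L6, the E2 enzyme that carries ISG15, had 13.9 ± 1.11 and PARP14, a mono-ADP-ribosyltransferase, 12.6 ± 0.491 CPM per kb in shTRIM21, against 10.9 ± 0.969 and 12.9 ± 0.224 in shControl. From IFIT5 down to OAS3 (9.86 ± 0.113 CPM per kb in shTRIM21 and 10.5 ± 0.530 in shControl) the 6 genes IFIT5, PARP14, UBE2L6, DTX3L, SAMD9 and OAS3 lay close together. From PARP14 to OAS3 each gene overlapped the next in its range over the 6 libraries, IFIT5's lowest library was just above PARP14's highest, and BST2 was clear of all of them. STAT2, the ISGF3 subunit, came next at 6.45 ± 0.534 CPM per kb in shTRIM21 and 6.33 ± 0.0936 in shControl.

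**Figure D2:**
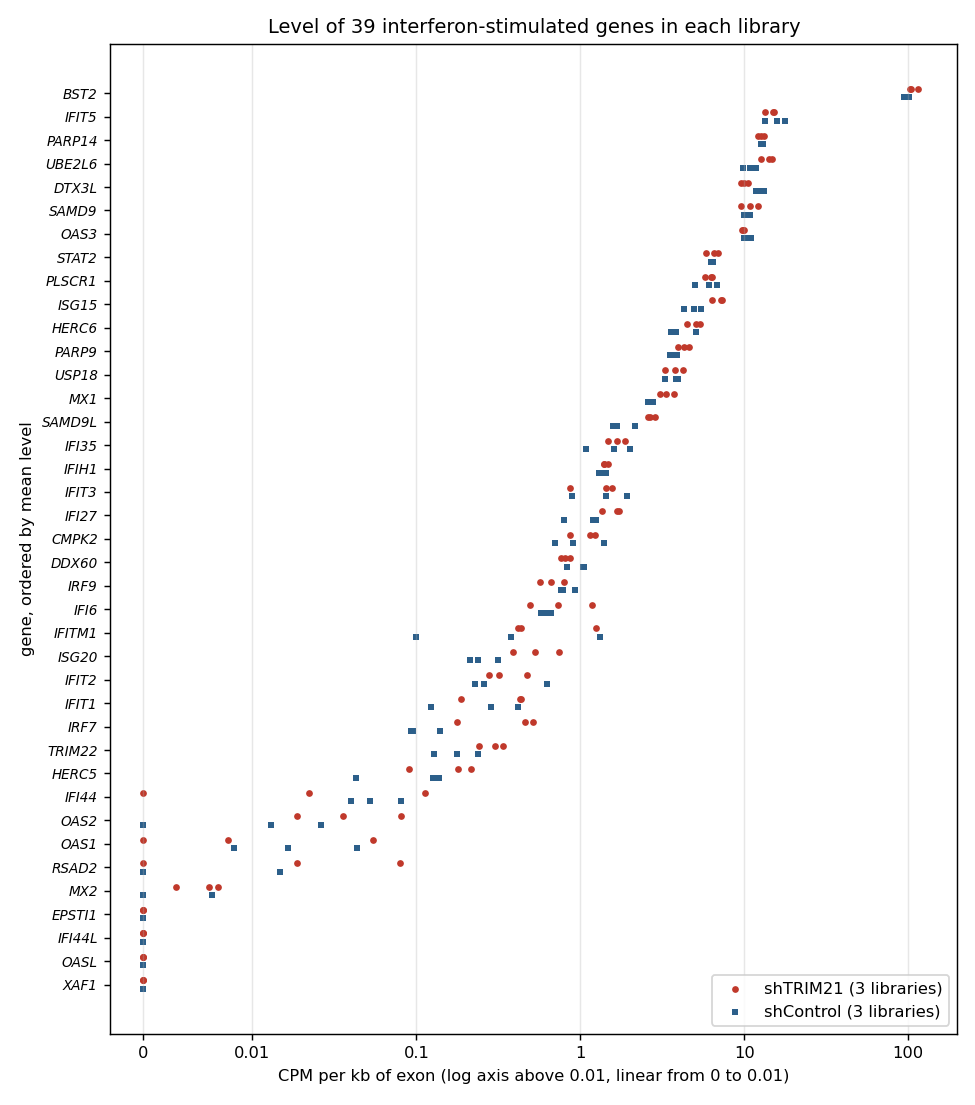
Level of each of the 39 members in each library, in CPM per kb of exon (log axis above 0.01, linear from 0 to 0.01), ordered by mean level; circles are the 3 shTRIM21 and squares the 3 shControl libraries. BST2 stands alone near 100, a group from IFIT5 to OAS3 lies near 10, and EPSTI1, IFI44L, OASL and XAF1 are at 0 in all 6 libraries.

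Several of the genes most often used as readouts of an interferon response were at the bottom of this order. EPSTI1, IFI44L, OASL and XAF1, a pro-apoptotic antagonist of XIAP, were listed at 0 in all 6 libraries. A 0 in this table is not read as absence, because CANX and RPL7A, which nearly every cell transcribes, are also listed at 0. IFI44, MX2, OAS1, OAS2 and RSAD2 (viperin, which makes a chain-terminating nucleotide) had between 0 and 13 counts per library. The highest of these was OAS2, which had 3, 5 and 13 counts in shTRIM21, against 2, 4 and 0 in shControl. RSAD2 had 0, 2 and 10 counts in shTRIM21, against 0, 0 and 2 in shControl. In both genes shTRIM21 replicate 3 was the highest library and the other values overlapped between the groups. A count of 0 allows up to 3 counts, which is 0.107 to 0.135 CPM depending on the library, and these 9 members did not pass the filter on low counts, so the main fit did not test them. With no such filter 5 of the 9 were tested and 0 of those were called.

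The comparison of shTRIM21 with shControl asks how these genes stand after TRIM21 is lowered. Of the 30 members tested, 2 rose (ISG20 and SAMD9L), 1 fell (DTX3L) and 27 did not pass edgeR's quasi-likelihood test at a Benjamini-Hochberg adjusted p of 0.05 over all 14002 genes tested. That is 6.67% of tested members higher, where 4.43% of all tested genes were called higher, and 3.33% lower, where 4.66% were called lower, so the share called is near the background in each direction. The fold changes leaned upward all the same: 22 of 30 were positive (73.3%, against 51.8% of all genes tested) and the median log2 fold change was 0.11, against 0.01 over all genes. In 10 members (33.3%) all 3 shTRIM21 libraries lay above all 3 shControl libraries, which happened in 14.1% of all genes tested, and in 1 member (3.33%) all 3 lay below, which happened in 13.9%. The 10 were IRF7, ISG20, TRIM22, SAMD9L, IFI27, ISG15, UBE2L6, MX1, PARP9 and BST2, and the 1 was DTX3L. IRF7 passed the filter on low counts only through its shTRIM21 libraries. Its place among the 10, and among the 22 positive members, was therefore set by that filter and carries no weight. Members share an inducer and are not independent of each other, and no test of the list as a whole was run. The median was 0.19 without shTRIM21 replicate 2 and between 0.08 and 0.16 under every other alternative. In bulk RNA, fewer cells that express a gene and less of its RNA per cell cannot be told apart.

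**Figure D3:**
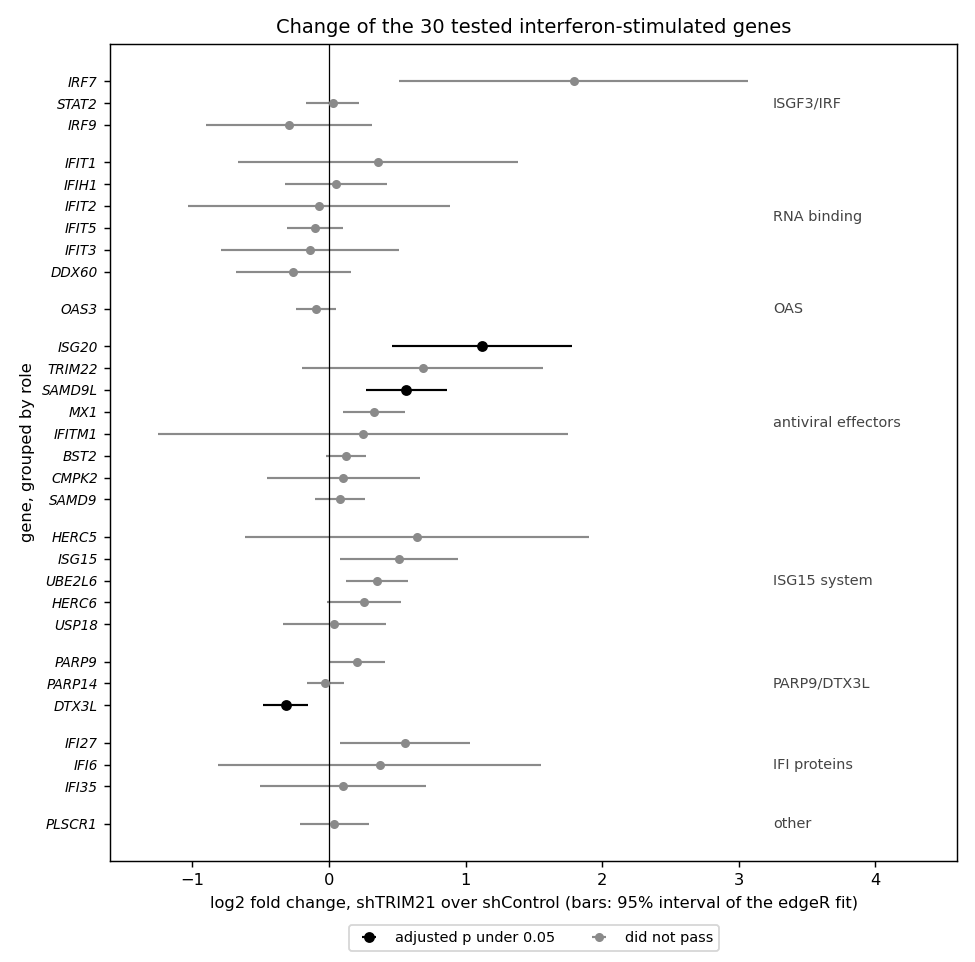
Log2 fold change of shTRIM21 over shControl for the 30 tested members, grouped by role, with 95% intervals of the edgeR fit on the x axis and genes down the page. ISG20, SAMD9L and DTX3L (black) have an adjusted p under 0.05; the antiviral effectors and the ISG15 system lie at or right of 0, and the intervals of scarcely counted genes such as IFITM1, HERC5 and IFI6 are wide.

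ISG20 (ENSG00000172183, chr15:88636153-88656483, plus strand, GRCh38, GENCODE release 29) is a 3′ to 5′ exonuclease that degrades single-stranded RNA. It had 5.45, 2.88 and 3.90 CPM in shTRIM21, against 2.33, 1.76 and 1.57 CPM in shControl. Every shTRIM21 library was above every shControl library, although replicate 2 of shTRIM21 was near the top of the control range. ISG20 rose by a log2 fold change of 1.12 (SE 0.31, 95% interval 0.46 to 1.78; edgeR adjusted p = 0.0316). Its level per kb of exon was low in both groups, at 0.554 ± 0.176 in shTRIM21 and 0.256 ± 0.0540 in shControl (SD, n = 3 each). The call was lost without shTRIM21 replicate 1 (0.85, edgeR adjusted p = 0.189), shTRIM21 replicate 3 (1.15, 0.0785), shControl replicate 2 (1.07, 0.0864) or shControl replicate 3 (1.01, 0.0574).

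SAMD9L (ENSG00000177409, chr7:93130055-93148369, minus strand) restrains poxvirus replication and cell growth. It had 18.4, 18.9 and 20.2 CPM in shTRIM21, against 11.4, 11.9 and 15.5 CPM in shControl. The shTRIM21 libraries were close to each other, and shControl replicate 3 was the highest of its group. The gene rose by a log2 fold change of 0.57 (SE 0.14, 95% interval 0.27 to 0.86; edgeR adjusted p = 0.0174). This call was lost without shTRIM21 replicate 2 (0.58, edgeR adjusted p = 0.0589), shTRIM21 replicate 3 (0.53, 0.08), shControl replicate 1 (0.48, 0.0859) or shControl replicate 2 (0.51, 0.0707). SAMD9, its paralog and neighbour on chromosome 7, had 65.8, 74.1 and 83.3 CPM in shTRIM21, against 68.0, 68.4 and 74.5 CPM in shControl. The groups overlapped, and SAMD9 did not pass (0.08, SE 0.09; edgeR adjusted p = 0.624).

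Among the other direct antiviral effectors the fold changes were all positive but none passed, which with ISG20, SAMD9L and SAMD9 makes 8 of 8 tested members of this role positive, 2 of them called, and a median of 0.29. Over all genes tested 51.8% were positive and 4.43% were called higher. IFITM1, CMPK2 and SAMD9 turned negative under some alternatives, reaching -0.98, -0.09 and -0.01. MX1, a dynamin-like GTPase that blocks viral nucleocapsids, had 26.5, 28.5 and 32.3 CPM in shTRIM21, against 23.3, 22.2 and 24.1 CPM in shControl. Its groups did not overlap, and its log2 fold change of 0.33 (SE 0.11) missed the threshold (edgeR adjusted p = 0.0682, and 0.0417 without shControl replicate 3). BST2 had 129, 115 and 116 CPM in shTRIM21, against 112, 113 and 106 CPM in shControl. Here the groups were separated by little, and the fold change was 0.12 (SE 0.07, 95% interval -0.02 to 0.27; edgeR adjusted p = 0.309). TRIM22, another TRIM-family ubiquitin ligase, had 1.45, 2.02 and 1.82 CPM in shTRIM21, against 1.06, 0.776 and 1.42 CPM in shControl, and did not pass (0.69, SE 0.42; edgeR adjusted p = 0.357). TRIM22 shares 10.7% of its exon length with OR56B1 on the same strand. CMPK2, a mitochondrial nucleotide kinase, and IFITM1, which blocks virus entry, had log2 fold changes of 0.11 (SE 0.27) and 0.25 (SE 0.72), and IFITM1 shares 32.5% of its exon length with IFITM2, so its counts are uncertain.

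The ISG15 system, a ubiquitin-like modifier with its conjugating and removing enzymes, had 5 of 5 members positive (USP18 turned to -0.0546 without shTRIM21 replicate 1), a median of 0.35 and 0 called by edgeR (2 at an unadjusted p under 0.05; DESeq2 called 1 and limma-voom 0). Over all genes tested, 51.8% were positive, 4.43% were called higher and 3188 of 14002 had an unadjusted p under 0.05 in edgeR. ISG15 itself had 6.83, 6.92 and 5.95 CPM in shTRIM21, against 4.66, 5.11 and 4.06 CPM in shControl. UBE2L6, its E2 enzyme, had 32.5, 27.8 and 31.2 CPM in shTRIM21, against 23.9, 21.7 and 26.0 CPM in shControl. In both genes every shTRIM21 library was above every shControl library. ISG15 had a log2 fold change of 0.51 (SE 0.21; edgeR adjusted p = 0.139), and UBE2L6 one of 0.35 (SE 0.11, 95% interval 0.12 to 0.58; edgeR adjusted p = 0.0511). UBE2L6 sat at the threshold: it passed in DESeq2 (adjusted p = 0.0363), with no filter on low counts (0.0363) and without shControl replicate 3 (0.0171), and did not pass with total count scaling (0.0798), limma-voom (0.0588) or without shTRIM21 replicate 1 (0.174). Over all alternatives its adjusted p ran from 0.0171 to 0.203. HERC6, the main ISG15 ligase in the mouse, had 31.2, 29.5 and 25.9 CPM in shTRIM21, against 20.7, 22.3 and 29.5 CPM in shControl. Only shControl replicate 3 reached into the shTRIM21 range, and HERC6 did not pass with it (0.25, SE 0.13; edgeR adjusted p = 0.253) and passed without it (0.43, 0.0192). HERC5, the main ISG15 ligase in human cells, was scarce, with 11, 23 and 22 counts in shTRIM21 and 5, 16 and 17 in shControl, and did not pass (0.64, SE 0.60; edgeR adjusted p = 0.571). USP18, which strips ISG15 from proteins and damps signalling at the receptor, was at 8.06 ± 1.02 CPM in shTRIM21 and 7.84 ± 0.750 CPM in shControl (SD, n = 3 each), values that are uncertain because near copies of this gene exist.

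**Figure D4:**
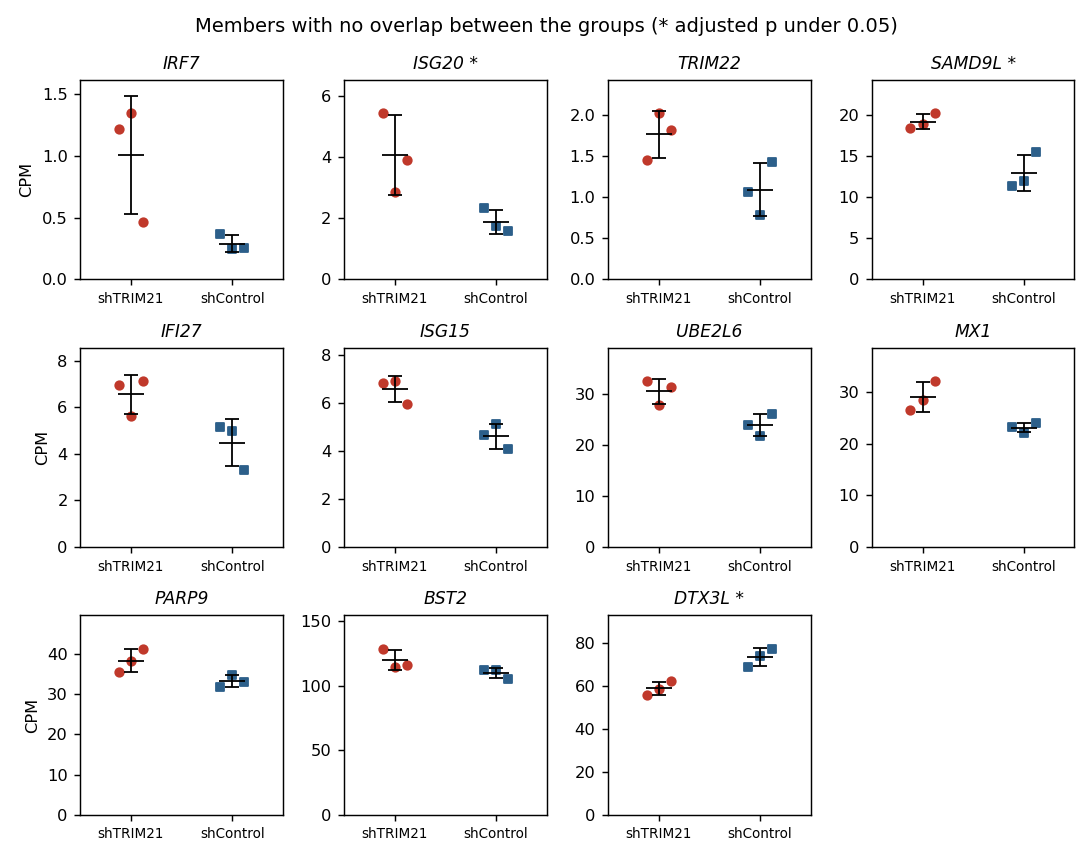
CPM in each library for the 11 members whose groups did not overlap, shTRIM21 (circles) left of shControl (squares), with the mean and SD of 3 libraries; each panel has its own y axis from 0, and an asterisk marks an adjusted p under 0.05. In 10 panels shTRIM21 is higher and in the DTX3L panel it is lower, and the gap ranges from narrow (TRIM22) to wide (SAMD9L).

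DTX3L, an E3 ubiquitin ligase, was the only member that fell. It had 56.0, 58.8 and 62.2 CPM in shTRIM21, against 68.8, 74.2 and 77.5 CPM in shControl. The highest shTRIM21 library was below the lowest shControl library, and the log2 fold change was -0.32 (SE 0.08, 95% interval -0.48 to -0.15; edgeR adjusted p = 0.0163). The call was lost without shTRIM21 replicate 1 (-0.28, edgeR adjusted p = 0.07), shTRIM21 replicate 2 (-0.31, 0.0679) or shControl replicate 2 (-0.31, 0.0543).

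PARP9, the protein that DTX3L binds to form one ADP-ribosylating and ubiquitinating complex, went the other way in value. It had 35.5, 38.2 and 41.4 CPM in shTRIM21, against 31.7, 34.8 and 33.1 CPM in shControl, again without overlap. PARP9 did not pass (0.21, SE 0.10, 95% interval 0.01 to 0.41; edgeR adjusted p = 0.197). Both genes start from one shared stretch of chromosome 3, PARP9 on the minus strand (GRCh38, 122527924 to 122564577, GENCODE release 29) and DTX3L on the plus strand (122564238 to 122575203), and the response element printed first above lies in the promoter windows of both. Within each library, PARP9 had 0.634, 0.650 and 0.665 counts per DTX3L count in shTRIM21, against 0.461, 0.469 and 0.427 in shControl. The ratio thus averaged 0.650 ± 0.0157 in shTRIM21 and 0.452 ± 0.0220 in shControl (SD, n = 3 each), a log2 difference of 0.52. An exact two-sided permutation test gave p = 0.1, the smallest that 3 against 3 libraries allow. That outcome was fixed beforehand, because PARP9 was higher and DTX3L lower without overlap between the groups. The pair was also picked after its values were seen, so the test adds nothing to the values of each gene. Their exons overlap by 217 bases on opposite strands, 3.70% of DTX3L's exon length and 2.43% of PARP9's, and the strand setting of the counting is not given in the sources used here, so reads in that stretch cannot be assigned to one gene with certainty. PARP14, which lies near them on the same chromosome, had 128, 132 and 138 CPM in shTRIM21, against 138, 135 and 133 CPM in shControl. The groups overlapped, and its fold change was -0.03 with a 95% interval of -0.16 to 0.11 (edgeR adjusted p = 0.853).

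**Figure D5:**
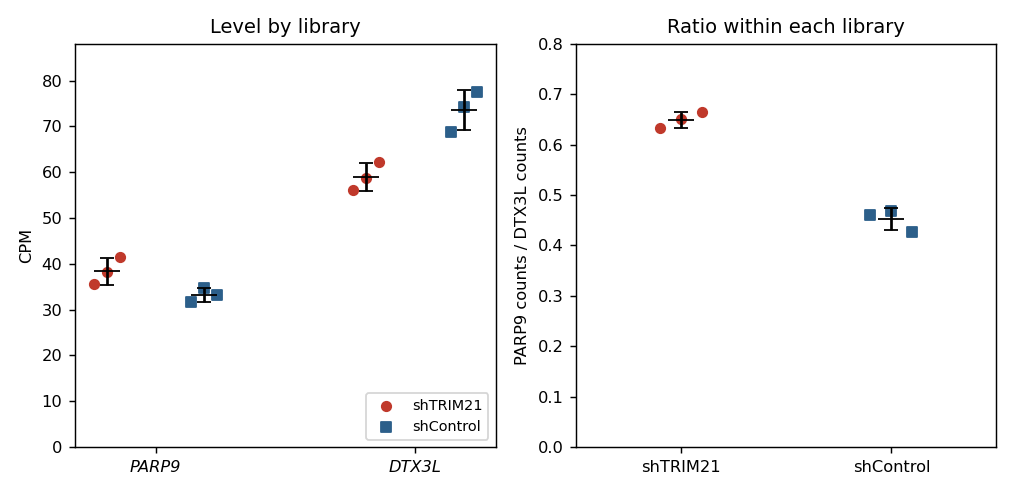
PARP9 and DTX3L in each library, as CPM (left) and as the ratio of PARP9 counts to DTX3L counts within a library (right), shTRIM21 (circles) left of shControl (squares), with the mean and SD of 3 libraries. PARP9 is higher and DTX3L lower in shTRIM21, and the ratio is 0.634 to 0.665 in shTRIM21 and 0.427 to 0.469 in shControl.

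Of the transcription factors among the members, IRF7, which drives the second wave of interferon genes, had the largest fold change of any tested member and very few counts, 31, 30 and 12 in shTRIM21, against 9, 6 and 7 in shControl. The groups did not overlap, and shTRIM21 replicate 3 was much nearer to the controls than replicates 1 and 2. IRF7 passed the filter on low counts through its shTRIM21 libraries alone, as every shControl count lay below the cutoff. It was thus tested only because it was high in shTRIM21, and the lack of overlap adds nothing to that. Its log2 fold change of 1.79 (SE 0.61, 95% interval 0.52 to 3.07) missed the threshold (edgeR adjusted p = 0.0749), and it passed when replicate 3 was left out of both groups (2.05, 0.0395). With no filter on low counts IRF7 did not pass (edgeR adjusted p = 0.115). STAT2 had 35.9, 42.4 and 39.9 CPM in shTRIM21, against 38.2, 38.4 and 39.3 CPM in shControl. The values overlapped fully, with a log2 fold change of 0.03 (SE 0.09, 95% interval -0.16 to 0.22; edgeR adjusted p = 0.896). IRF9, the DNA-binding subunit of ISGF3, was at 2.56 ± 0.428 CPM in shTRIM21 and 3.14 ± 0.330 CPM in shControl (SD, n = 3 each; -0.29, SE 0.29; edgeR adjusted p = 0.596), and 48.4% of its exon length overlaps another annotated gene on the same strand.

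Of the RNA-binding and RNA-sensing members, 2 of 6 were positive, their median was -0.09, 0 passed in edgeR, DESeq2 or limma-voom, 0 had an unadjusted p under 0.05 in edgeR, and all 6 overlapped between the groups. Most genes overlapped too: of all genes tested, 14.1% were higher and 13.9% lower without overlap. Positive fold changes made up 51.8% of them, and 3188 of 14002 had an unadjusted p under 0.05 in edgeR. IFIT1, IFIT2, IFIT3 and IFIT5 changed sign under some alternatives, and the difference from other roles was not tested. IFIT5 had 54.0, 61.4 and 60.5 CPM in shTRIM21, against 63.4, 53.4 and 71.7 CPM in shControl. Its fold change was -0.10 (SE 0.10, 95% interval -0.30 to 0.10; edgeR adjusted p = 0.584). IFIT1, IFIT2 and IFIT3, classic induced genes that bind foreign RNA or each other, lay between 0.570 and 5.11 CPM in all libraries, with log2 fold changes of 0.36 (SE 0.49), -0.07 (SE 0.46) and -0.14 (SE 0.31). IFIH1, the double-stranded RNA sensor MDA5, had 7.49, 7.14 and 7.15 CPM in shTRIM21, against 6.67, 6.99 and 7.33 CPM in shControl. The helicase DDX60 was at 5.48 ± 0.351 CPM in shTRIM21 and 6.55 ± 0.821 CPM in shControl (SD, n = 3 each). OAS3, which makes the 2′-5′ oligoadenylates that activate RNase L, was the only synthetase tested, and had 81.1, 82.3 and 80.5 CPM in shTRIM21, against 87.9, 90.8 and 82.2 CPM in shControl. These overlapped, and the fold change was -0.10 (SE 0.07, 95% interval -0.24 to 0.05; edgeR adjusted p = 0.452).

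The 3 tested IFI members were positive, and 0 passed in edgeR, DESeq2 or limma-voom (1 had an unadjusted p under 0.05 in edgeR). For comparison, 51.8% of all genes tested were positive and 3188 of 14002 had an unadjusted p under 0.05 in edgeR. IFI27, a mitochondrial protein, had 6.94, 5.62 and 7.15 CPM in shTRIM21, against 5.15, 4.98 and 3.31 CPM in shControl. Its groups did not overlap, and the log2 fold change was 0.56 (SE 0.23; edgeR adjusted p = 0.14). IFI6 and IFI35 had fold changes of 0.37 (SE 0.56) and 0.10 (SE 0.29) with overlapping groups, and both changed sign under some alternatives. PLSCR1, a phospholipid scramblase, was at 26.7 ± 1.46 CPM in shTRIM21 and 25.9 ± 4.12 CPM in shControl (SD, n = 3 each; 0.04, SE 0.12).

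Members were also set side by side by whether a promoter window held GAAANNGAAA. The 19 tested members with the element had a median log2 fold change of 0.12 and 2 calls (ISG20 and DTX3L), and the 7 without it had a median of 0.11 and 1 call (SAMD9L). Of all genes tested, 4.43% were called higher and 4.66% lower, with a median log2 fold change of 0.01. Mean levels ran from 0.132 to 103 CPM per kb of exon with the element and from 0.751 to 12.4 without it. The element was also held by 4 of the 6 untested members with a window. The 7-base sequence AGTGGAA, picked out by an earlier scan of these same fold changes, was in the longest annotated 3′ UTR of 5 of the 30 tested members (DDX60, DTX3L, IFIH1, IFIT5 and SAMD9), or 16.7%, against 18.7% of 11881 tested genes with such a UTR.

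Upstream of the members, the machinery of interferon signalling was present and the ligands were almost uncounted. Of 21 interferon genes, 18 were listed at 0 in all libraries and none passed the filter on low counts. With no filter 3 were tested and 0 were called. IFNE, the epithelial interferon epsilon, had 20, 4 and 2 counts in shTRIM21, against 15, 6 and 8 in shControl, IFNA14 had 9 counts in shControl replicate 3 alone and IFNK had 1 count in shTRIM21 replicate 3. All 6 receptor subunits were tested and 0 passed in edgeR or DESeq2 (1 had an unadjusted p under 0.05 in edgeR, and 1 was called higher without shControl replicate 3), among them IFNAR1 at 127 ± 6.34 CPM in shTRIM21 and 116 ± 8.65 CPM in shControl and IFNAR2 at 40.2 ± 1.82 CPM in shTRIM21 and 43.4 ± 4.27 CPM in shControl (SD, n = 3 each). IFNAR2 shares 44.2% of its exon length with another annotated gene on the same strand, so its counts are uncertain. Of 11 tested genes of JAK-STAT signalling and its inhibitors 0 passed in edgeR, where 1 had an unadjusted p under 0.05, and 1 was lower in DESeq2. Among all 14002 genes tested, 3188 had an unadjusted p under 0.05 in edgeR. JAK1, one of the receptor's kinases, was at 172 ± 5.83 CPM in shTRIM21 and 163 ± 6.18 CPM in shControl.

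In the sensing pathways that lead to interferon production, 2 of 10 tested genes fell and 0 rose in edgeR, where 3 had an unadjusted p under 0.05 in either direction, and DESeq2 called 1 higher and 2 lower. The 20% that fell compare with 4.66% of all genes tested, over a list of only 10. An unadjusted p under 0.05 in edgeR was found in 3188 of all 14002 genes tested. TRAF3, an adaptor ligase between sensors and kinases, was at 53.3 ± 6.19 CPM in shTRIM21 and 71.0 ± 1.05 CPM in shControl (SD, n = 3 each), a log2 fold change of -0.41 (SE 0.09; edgeR adjusted p = 0.00505) whose call held under every alternative run. TBK1, the kinase that phosphorylates IRF3, was at 71.7 ± 4.71 CPM in shTRIM21 and 85.8 ± 6.89 CPM in shControl, and passed narrowly (-0.26, SE 0.08; edgeR adjusted p = 0.0478). That call was lost without any 1 of the libraries except shControl replicate 2, with adjusted p of 0.147, 0.0618 and 0.186 without shTRIM21 replicates 1, 2 and 3, and 0.152 and 0.0892 without shControl replicates 1 and 3. It was also lost with replicate 3 left out of both groups (0.204), with total count scaling (0.0846) and with limma-voom (0.0547). The DNA sensor IFI16 had 551 ± 16.1 CPM in shTRIM21 and 479 ± 44.3 CPM in shControl and did not pass (0.20, SE 0.07; edgeR adjusted p = 0.0723). STING1 had at most 6 counts in any library.

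A further list of 52 interferon-induced genes that are not among the 39 had 42 tested, 3 higher (7.14%, against 4.43% of all genes), 1 lower (2.38%, against 4.66%) and a median log2 fold change of 0.13, against 0.01 over all genes. Of the 42, 64.3% were positive, against 51.8% of all genes tested. Without overlap, 26.2% were higher (14.1% of all genes) and 14.3% lower (13.9% of all genes). Without shControl replicate 3 the list had 5 higher and 2 lower, and without shTRIM21 replicate 2 it had 1 higher. SHISA5 had 74.2 ± 8.69 CPM in shTRIM21 and 56.1 ± 2.51 CPM in shControl (SD, n = 3 each; 0.40, SE 0.09; edgeR adjusted p = 0.00646). LY6E, a membrane protein that alters virus entry, had 57.9 ± 2.97 CPM in shTRIM21 and 44.2 ± 5.27 CPM in shControl (0.39, SE 0.09; edgeR adjusted p = 0.0128), a call lost without shTRIM21 replicate 1 (0.0615) or 2 (0.0501). B2M, the light chain of MHC class I, had 440 ± 24.0 CPM in shTRIM21 and 369 ± 36.2 CPM in shControl (0.25, SE 0.07; edgeR adjusted p = 0.033). Its call was lost without shTRIM21 replicate 2 (0.115) or 3 (0.177) without shControl replicate 1 (0.145) or 2 (0.153), and with total count scaling (0.116). EIF2AK2, the double-stranded RNA-activated kinase PKR, went the other way, with 341 ± 14.3 CPM in shTRIM21 and 420 ± 4.12 CPM in shControl (-0.30, SE 0.06; edgeR adjusted p = 0.0033), a call that, like that of SHISA5, held under every alternative run.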

How the data were processed

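For each of the 6 libraries the deposited values are raw counts by gene symbol, with no normalization. Total RNA was extracted with Trizol, depleted of ribosomal RNA and made into libraries with a low-input kit, per the labels' protocols. TopHat2 2.1.1, edgeR 3.38.1, limma 3.52.2 and the hg38 genome are named by the submitters' processing notes. Which tool and annotation gave the counts, and how strand and multiply mapped reads were handled, is not stated in any source used here.

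Counts were tested on the whole table with edgeR 4.0.16 (R 4.3.3): default filter on low counts, which left 14002 of 28278 symbols, TMM scaling, quasi-likelihood test of shTRIM21 over shControl with no other term, and Benjamini-Hochberg adjustment over all 14002 genes with a threshold of 0.05. Of all symbols, 9276 were at 0 in every library. CPM are counts scaled to the TMM-adjusted library size, and CPM per kb divide them by the union exon length of GENCODE release 29, which matched 26123 symbols and all 39 members. Intervals are 95%. Between replicates, edgeR's biological coefficient of variation was 10.7%.

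The members and lists were chosen with earlier results of these data known. All members are accounted for. Values per library and test were given to members that passed, to the 8 with the highest level per length and to those whose groups did not overlap; HERC6 and a few others were added after their values were seen. Of each pathway list, counts, genes that passed and up to 3 abundant genes are given. A result on 1 further gene was left out. Alternatives were RLE scaling, total count scaling, no filter, DESeq2 1.42.0, limma-voom (limma 3.58.1), a replicate block, each library left out, replicate 3 of both groups left out, and ribosomal RNA genes left out. Motifs were searched with Python 3.11.15.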

Additional observations from a re-analysis of the deposited data

How the results depend on the processing

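Of the 30 tested members, 17 kept the direction of their fold change under all 14 alternatives and 13 changed sign under some, and each of the 3 called members lost its call under some alternative. The members called higher numbered 2, and 3 with DESeq2 and 3 with no filter on low counts. They numbered 4 with the replicate block, 4 without replicate 3 of both groups (IRF7 among them) and 0 to 4 with 1 library left out. Those called lower numbered 1, and 0 to 1 with 1 library left out. The replicate block added MX1 and UBE2L6. Deviations of same-numbered libraries correlated weakly at most (0.10, -0.01 and 0.09 for numbers 1, 2 and 3). Pairs of unlike number ran from -0.12 to 0.05. Numbers 1 and 3 thus gave the highest values, while shTRIM21 replicate 2 was most like shControl replicate 3. Ribosomal RNA share and the second principal component did rank the libraries alike by number in both groups, and the labels do not say what a number shares, so the libraries were not treated as paired. The TRIM21 fold change was -0.45 without replicate 3 of both groups and -0.82 to -0.56 with 1 library left out. Leaving out replicate 3 of both groups gave fold changes of 0.61 for IFIT2, -0.19 for IFIT1, -0.98 for IFITM1 and -0.0927 for IFI35, and IFIT2 was at 0.003 with limma-voom and 0.0239 with the replicate block. With 1 library left out the fold changes ran from -0.33 to 0.54 for IFIT2, -0.0546 to 0.13 for USP18, -0.0555 to 0.0009 for PARP14, -0.0244 to 0.63 for IFI6, -0.0272 to 0.0903 for STAT2, -0.38 to 0.15 for IFIT3, -0.47 to 1.57 for IFITM1, -0.0073 to 0.16 for SAMD9, -0.092 to 0.43 for CMPK2, -0.0745 to 0.16 for PLSCR1, -0.21 to 0.011 for IFIT5 and -0.10 to 0.32 for IFI35. The cause was not tested. Over all genes the calls numbered 620 higher and 652 lower, against 935 and 802 without shControl replicate 3, 296 and 306 without shTRIM21 replicate 3, and 456 and 432 with total count scaling. Depth limits the members under 1 CPM, whose intervals are wide or which could not be tested.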
